A study of Mus musculus with 4 samples.

Results

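The genes described here are 9 CC chemokine ligands of the mouse, Ccl2, Ccl3, Ccl4, Ccl6, Ccl7, Ccl9, Ccl17, Ccl22 and Ccl24. They were taken by name from a table of 52476 gene names, and all 9 were found. The samples were macrophages grown from bone marrow, either wild type (WT) or labelled OGT knockout. OGT is O-GlcNAc transferase, which adds a single sugar to serines and threonines of proteins inside the cell. Bone marrow cells of both genotypes had been kept for 7 days in M-CSF, the macrophage growth factor, at 20 ng/mL. The groups were WT at 0 h, WT at 24 h, OGT knockout at 0 h and OGT knockout at 24 h, where 24 h is the time in IL-4 at 20 ng/mL. All 4 carry the same IL-4 treatment label, and 0 h was taken to mean before IL-4 was added. The sources used here do not state the strain, sex or age of the mice, the promoter of any Cre or which part of Ogt was deleted.

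CC chemokines are small secreted proteins named for a pair of adjacent cysteines near the start of the mature protein. They bind G protein-coupled receptors on leukocytes and draw those cells along a gradient. Macrophages exposed to IL-4, which signals through the transcription factor STAT6, are known as a source of Ccl17, Ccl22 and Ccl24, while Ccl2, Ccl3 and Ccl4 are better known from inflammatory activation.

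Each group held 1 library, so no difference below can be set against the spread between cultures and none was tested. A difference is the log2 ratio of FPKM + 1 (fragments per kilobase of transcript scaled to library size, with 1 added to both values), and a gene is counted as higher or lower from 2-fold on, among genes at 1 FPKM or more in a library of the comparison. Ogt stood at 27.4 FPKM in WT and 14.2 in knockout cells at 0 h, and at 29.8 and 14.5 at 24 h. The knockout libraries thus still held Ogt reads. The samples include no 24 h culture free of IL-4, so IL-4 and time in culture cannot be told apart. All 8 macrophage markers were above 1 FPKM, with Cd68 between 965 and 1009 FPKM and Csf1r between 610 and 885. Their sum was 18542 and 6401 FPKM in WT and 15479 and 6414 in knockout cells, at 0 h and 24 h. Lyz2 made up 81.9% of it in WT at 0 h, and without Lyz2 the sums were 3349 and 2154 FPKM in WT and 3417 and 2266 in knockout cells. At 0 h the summed markers of every other cell type listed were lower in knockout cells, at 24.9% to 81.6% of WT. Erythroid markers fell outside this range and were listed at 0 there. Some sums were nearly all 1 gene. In WT at 0 h, Cd79b made up 98.4% of the B cell sum, Cd4 95.6% for T cells and Nkg7 95.6% for NK cells. The remainders were at 120%, 0% and 86.7% of WT, from WT sums of only 0.226, 1.14 and 0.0686 FPKM. In bulk samples such as these, fewer cells of a type and less RNA per cell cannot be told apart.

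The stretch that names the family is shown first, since reads can be assigned to one member only where its sequence differs from the others. Each line gives 54 coding bases, 5′ to 3′, from the GENCODE M21 transcript of a member, with the codons of the adjacent cysteines in capitals. Ccl24 has another such pair of codons at codon 19, and its later pair, at codon 33, is the one printed.
Ccl2: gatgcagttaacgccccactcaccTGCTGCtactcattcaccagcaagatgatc
Ccl7: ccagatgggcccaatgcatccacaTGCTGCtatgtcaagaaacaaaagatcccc
Ccl3: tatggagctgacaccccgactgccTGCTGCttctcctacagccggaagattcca
Ccl4: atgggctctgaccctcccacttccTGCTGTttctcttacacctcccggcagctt
Ccl6: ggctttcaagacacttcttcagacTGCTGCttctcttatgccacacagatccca
Ccl9: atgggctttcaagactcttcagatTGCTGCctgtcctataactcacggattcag
Ccl17: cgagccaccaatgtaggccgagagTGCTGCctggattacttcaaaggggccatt
Ccl22: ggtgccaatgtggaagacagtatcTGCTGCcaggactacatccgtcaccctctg
Ccl24: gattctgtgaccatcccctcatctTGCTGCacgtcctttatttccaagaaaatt

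Over the 36 pairs of members, identical bases made up between 42.3% and 69.6% of the longer coding sequence of the pair. By this share Ccl3 and Ccl4 were highest at 69.6%, followed by Ccl6 and Ccl9 at 66.1%. The share is lowered where lengths differ, as for Ccl2 with 444 coding bases and Ccl7 with 291. It therefore does not settle which pair is closest in sequence. The longest run shared exactly by the transcripts of any pair was 25 bases. In 8 of the 9 members no stretch of 50 bases from the transcript used recurred on the same strand in transcripts of another gene. In Ccl9, 59 of 2957 such stretches (2.00%) did, spread over transcripts of 250 genes. No exon of a member overlapped an exon of another annotated gene. On the strand searched, the members therefore had sequence of their own for nearly all of their length. The opposite strand was not searched for shared stretches.

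**Figure D1:**
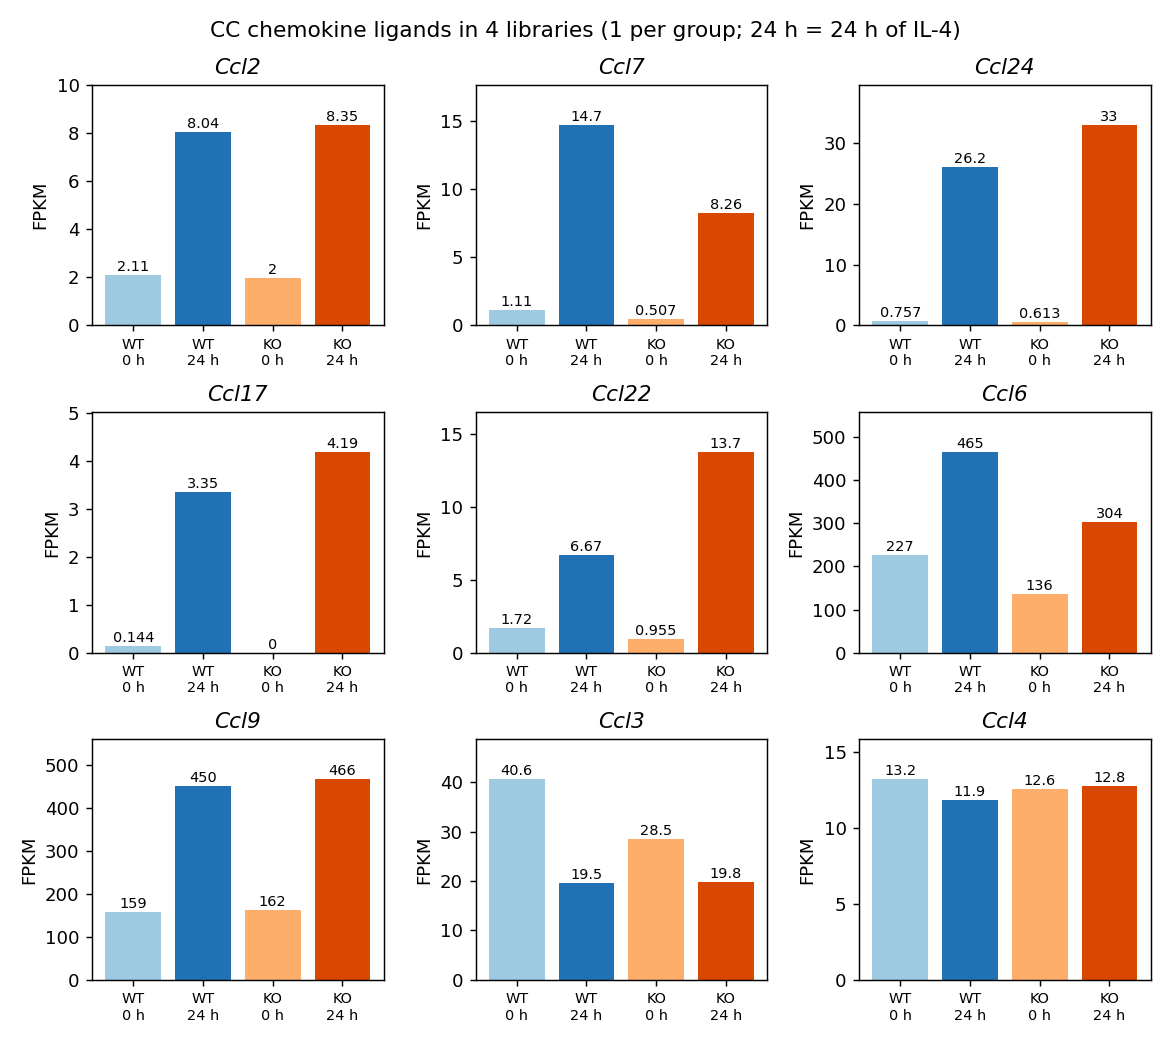
Bars give the deposited FPKM of each CC chemokine ligand (y axis, from 0) in the 4 libraries (x axis), WT in blue and OGT knockout (KO) in orange, 1 library per bar and no error. Ccl2, Ccl7, Ccl24, Ccl17, Ccl22, Ccl6 and Ccl9 stand higher at 24 h in both genotypes, Ccl3 stands lower, and Ccl4 stays between 11.9 and 13.2 FPKM.

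Ccl6 and Ccl9, rodent chemokines that act through Ccr1 and attract myeloid cells, were by far the most abundant members. Of the summed FPKM of the 9 members they held 86.6% and 91.0% in WT, and 86.9% and 88.5% in knockout cells, at 0 h and 24 h. That sum was 445 FPKM in WT and 344 in knockout cells at 0 h, and 1005 and 870 at 24 h. Below them at 0 h stood Ccl3, Ccl4 and Ccl2, in that order in both genotypes. At 24 h Ccl24 stood next after Ccl6 and Ccl9 in both. The order has no error with 1 library per group, and close neighbours in it, such as Ccl2 and Ccl7 in knockout cells at 24 h (8.35 and 8.26 FPKM), cannot be ranked.

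The first comparison set the ligands of WT cells at 24 h against those at 0 h. Of the 9 members, 7 were at least 2-fold higher, against 4.76% of the 11687 genes kept, and 1 was at least 2-fold lower, against 6.26%. The median log2 difference was 1.50 for the members and 0.02 for all genes kept. The members were listed with earlier results of these data known, so these shares describe them and do not set them apart. In the knockout the same 7 were at least 2-fold higher, against 5.16% of 11577 genes, and none was 2-fold lower, against 5.99%. The median there was 1.64, or 1.58 without Ccl17, against 0.03 for all genes kept. Ccl17 and Ccl24 passed the filter in WT only through the 24 h library. In the knockout Ccl7, Ccl17, Ccl22 and Ccl24 did so. The direction of those values was thus partly set by the filter.

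Ccl24, also called eotaxin-2, is a Ccr3 ligand that attracts eosinophils. It stood at 0.757 FPKM in WT and 0.613 in knockout cells at 0 h, and at 26.2 and 33.0 at 24 h. Its differences, 3.95 in WT and 4.40 in the knockout on the log2 scale, were the largest of the 9 members in both genotypes. Low values rest on few reads: from the size of 1 fragment in the table, about 21.5 and 15.9 fragments lay behind the 0 h values and 719 and 866 behind those at 24 h.

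Ccl17 and Ccl22 are the ligands of Ccr4, a receptor of T helper 2 and regulatory T cells. Ccl17 stood at 0.144 FPKM in WT at 0 h, an estimated 1.6 fragments, and was listed at 0 in knockout cells at 0 h. At 24 h it was at 3.35 FPKM in WT and 4.19 in the knockout, the lowest member in both libraries. Both 24 h values were above both 0 h values. The WT difference was 1.93, and for the knockout no fold is given against a value of 0.

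Ccl22 stood at 1.72 FPKM in WT and 0.955 in knockout cells at 0 h, and at 6.67 and 13.7 at 24 h. It was thus lower in the knockout than in WT without IL-4 and higher with it. Its log2 difference was 1.50 in WT and 2.92 in the knockout. As ratios of FPKM these are 3.89-fold and 14.4-fold, resting on an estimated 83.2 and 313 fragments in WT and 42.3 and 617 in the knockout. Ccl22 was the member whose responses differed most between the genotypes, by 1.42 on the log2 scale.

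Of the genes known as markers of dendritic cells, which are another source of Ccl17 and Ccl22, 6 of 9 stayed under 1 FPKM in every library, among them Flt3 (at most 0.27) and Zbtb46 (at most 0.48). The summed level of the 9 markers was 41.2 FPKM in WT and 20.4 in knockout cells at 0 h, and 384 and 380 at 24 h. Most of it came from Itgax, an integrin gene that macrophages also express. At 0 h Itgax was at 35.1 FPKM in WT and 15.1 in knockout cells, 85.0% and 74.1% of the sum. At 24 h it was at 355 FPKM in WT and 353 in knockout cells, 92.5% and 92.9% of the sum. Batf3 followed, at 27.0 FPKM in WT and 25.2 in knockout cells at 24 h. At 0 h it was at 2.70 and 2.10 FPKM, so it too was higher at 24 h (2.92 and 3.08). The part of these genes in the values of Ccl17 and Ccl22 was not tested.

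Ccl2 and Ccl7 are monocyte chemoattractants that act on Ccr2. Ccl2 stood at 2.11 FPKM in WT and 2.00 in knockout cells at 0 h, and at 8.04 and 8.35 at 24 h. Its log2 differences, 1.54 and 1.64, were close to each other. Ccl7 stood at 1.11 FPKM in WT and 0.507 in knockout cells at 0 h, and at 14.7 and 8.26 at 24 h. The log2 differences of Ccl7, 2.89 in WT and 2.62 in the knockout, were the second largest and the third largest of the members. Their order depends on the 1 FPKM added: as plain ratios of FPKM they were 13.2-fold in WT and 16.3-fold in the knockout, with about 19.5 and 8.1 fragments behind the 0 h values. Without IL-4 there was less Ccl7 than Ccl2, at 0.526 times in WT and 0.254 times in the knockout. At 24 h Ccl7 was at 1.83 times Ccl2 in WT and 0.989 times in the knockout, ratios within a library that do not depend on how libraries are scaled.

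Ccl9, also called MIP-1γ, stood at 159 FPKM in WT and 162 in knockout cells at 0 h, and at 450 and 466 at 24 h. Its log2 differences at 24 h against 0 h were 1.50 and 1.52, and the genotypes were nearly level at both times. Ccl6 stood at 227 FPKM in WT and 136 in knockout cells at 0 h, and at 465 and 304 at 24 h. Ccl6 was 2-fold higher by a narrow margin in WT (1.03) and by 1.15 in the knockout. With the libraries rescaled by either of 2 methods the WT value came to 0.97, under 2-fold.

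Ccl3 (MIP-1α) and Ccl4 (MIP-1β) are inflammatory chemokines that attract monocytes and T cells. Ccl3 stood at 40.6 FPKM in WT and 28.5 in knockout cells at 0 h, and at 19.5 and 19.8 at 24 h. The log2 difference of Ccl3 was −1.02 in WT and −0.51 in the knockout, with the 24 h libraries level and the 0 h libraries apart. Ccl4 was nearly flat, at 13.2 and 11.9 FPKM in WT and 12.6 and 12.8 in the knockout (−0.14 and 0.02). The sign of the small knockout value turned after rescaling, to −0.04 and −0.02. These 2 genes lie side by side and had the highest share of identical bases, taken over the longer coding sequence. Yet Ccl3 went from 3.07 times Ccl4 at 0 h to 1.64 times at 24 h in WT. In the knockout Ccl3 went from 2.27 to 1.55 times Ccl4.

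**Figure D2:**
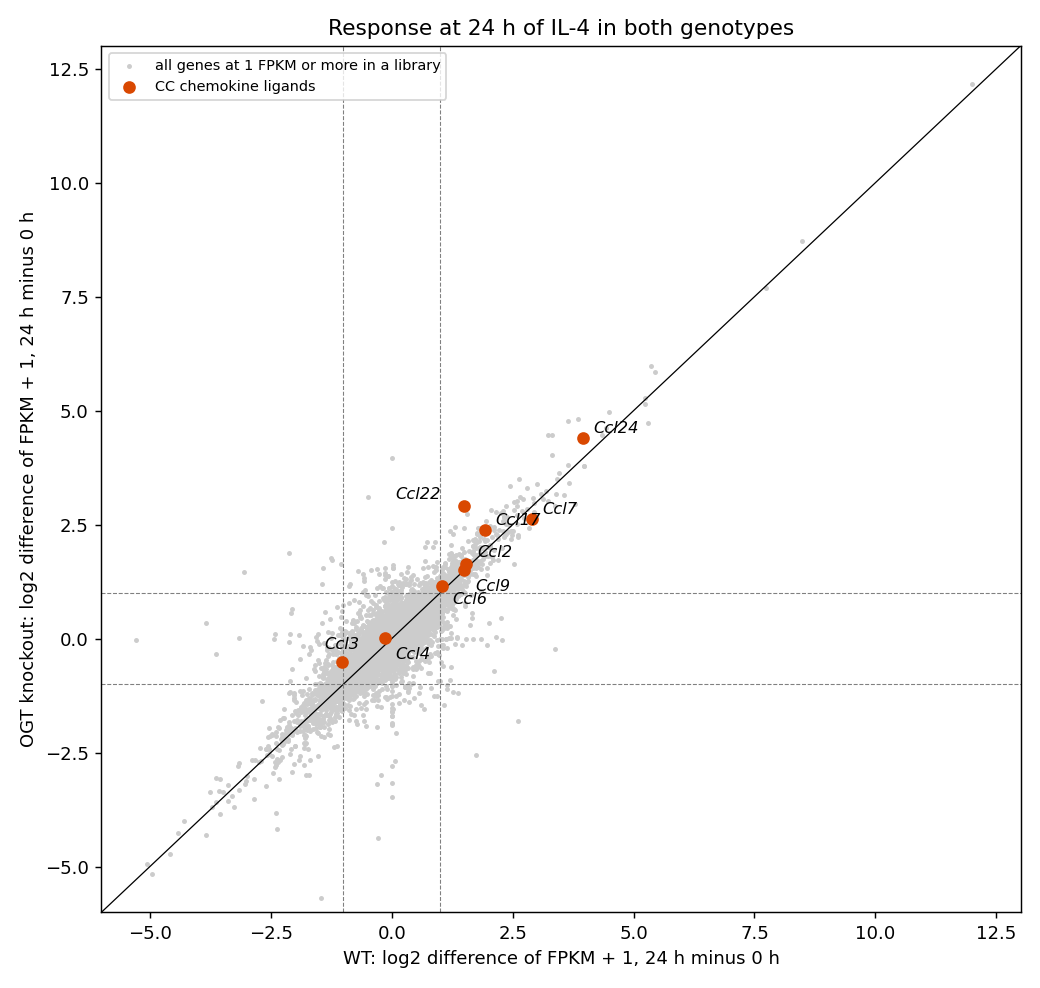
Each point is a gene, placed by its log2 difference of FPKM + 1 between 24 h and 0 h in WT (x axis) and in the OGT knockout (y axis), with all genes at 1 FPKM or more in grey, the 9 ligands in orange, the line of equal response drawn and 2-fold dashed. Most ligands lie near the line, and Ccl22 lies above it, at 1.50 in WT and 2.92 in the knockout.

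Set directly against each other, the responses of the genotypes (knockout minus WT) differed by at least 2-fold for 1 of 9 members, Ccl22, against 1.27% of 12000 genes higher in the knockout and 1.16% lower. The other 8 lay between −0.27 (Ccl7) and 0.51 (Ccl3). The sign for Ccl7 turned with 0.1 FPKM added in place of 1, to 0.17. Ccl17 and Ccl24 were both at 0.45, and the value of Ccl17 rests on the 0 in the knockout. With 5 FPKM added in place of 1, the value of Ccl22 was 0.86 and no member passed 2-fold.

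The genotypes were next compared without IL-4. Of the 9 members 7 were kept, since Ccl17 and Ccl24 did not reach 1 FPKM in either library at 0 h. None was 2-fold higher in the knockout, against 0.88% of 11479 genes, and none was 2-fold lower, against 0.871%. With backgrounds that small, a count of 0 among so few genes says little. Of the 7, 6 had negative values, as had 6831 of the 11479 genes kept. The median of the 7 was −0.47 against −0.05 for all genes kept. Over all 9 members, those under the filter included, the median was −0.19, or −0.30 without Ccl17. The lowest was Ccl6 at −0.73, followed by Ccl3 and Ccl7 at −0.49 each and Ccl22 at −0.47. This order holds for FPKM + 1 only, since as a plain ratio of FPKM Ccl7 was lowest, with knockout cells at 45.6% of WT. Ccl2 (−0.06), Ccl4 (−0.07) and Ccl9 (0.03) were nearly level.

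After 24 h of IL-4 all 9 were kept and again none was 2-fold higher (background 0.832% of 11302 genes) or 2-fold lower (0.619%) in the knockout. The median was 0.05, against −0.05 for all genes kept. Ccl22 came closest, at 0.94 on the log2 scale, which is 2.06-fold as a plain ratio of FPKM. Ccl7 was lowest at −0.76, with the knockout at 56.3% of the WT FPKM, followed by Ccl6 at −0.61. Ccl24 (0.32) and Ccl17 (0.25) were somewhat above 0, and Ccl2, Ccl3, Ccl4 and Ccl9 lay between 0.02 and 0.09.

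**Figure D3:**
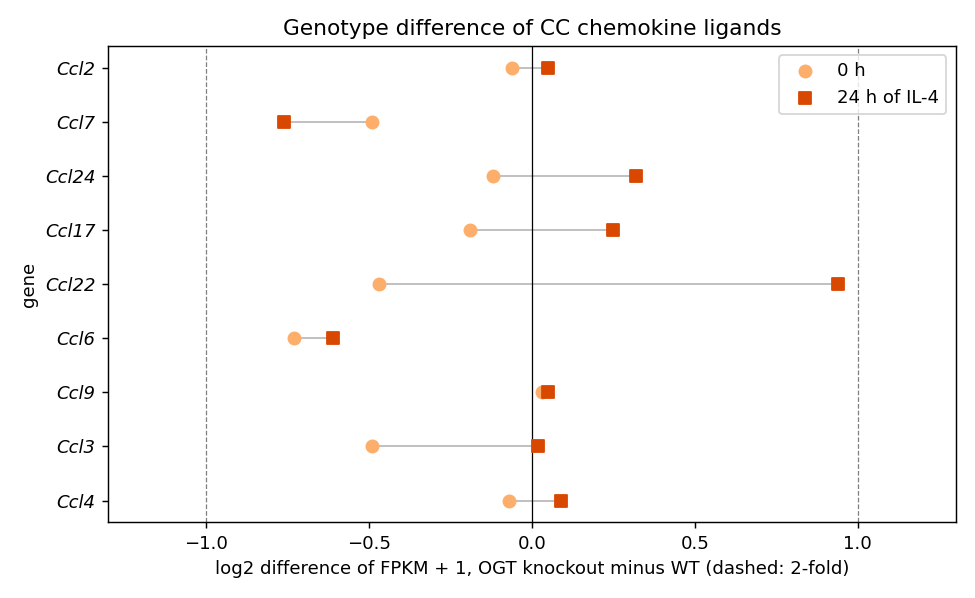
For each CC chemokine ligand (y axis) the log2 difference of FPKM + 1 between OGT knockout and WT (x axis) is shown at 0 h (circles) and at 24 h of IL-4 (squares), with 2-fold dashed. Ccl6 and Ccl7 lie below 0 at both times, Ccl9 lies near 0 at both, and Ccl22 goes from −0.47 to 0.94.

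Ccl6 and Ccl9 are neighbours, similar in sequence and the most abundant members, and the genotypes stood apart in Ccl6 and nearly level in Ccl9. Ccl6 in the knockout was at 59.9% of WT at 0 h and 65.3% at 24 h, while Ccl9 was at 102% and 104%. Within a library, Ccl9 was at 0.699 times Ccl6 in WT and 1.19 times in knockout cells at 0 h, and at 0.966 and 1.53 times at 24 h. The values of Ccl6 rest on an estimated 3919 to 14214 fragments per library. The summed FPKM of 8 neutrophil markers was 3248 in WT and 2069 in knockout cells at 0 h (63.7%), and 1021 and 667 at 24 h (65.3%). Most of it came from S100a8 and S100a9, which made up 76.6% of the sum in WT at 0 h, and the other 6 markers summed to 76.0% of WT at 0 h and 80.9% at 24 h. Camp was nearly level between genotypes (−0.10 and −0.14), as was Mpo at 24 h (−0.12). All 7 that were kept had negative genotype differences at both times, while Ly6g was at most 0.65 FPKM. The 5 monocyte markers summed to 58.5 and 39.7 FPKM at 0 h (67.9%) and to 31.6 and 21.2 at 24 h (67.0%). Ccr2 made up 24.4% of that sum in WT at 0 h and 50.7% at 24 h. At 0 h Ccr2 was higher in the knockout, at 16.3 FPKM against 14.3. Without Ccr2 the monocyte sum was at 52.8% of WT at 0 h and 75.8% at 24 h. Between 0 h and 24 h, Ccl6 was higher and the full neutrophil and monocyte sums were lower in each genotype. That change over time does not bear on the difference between genotypes. The part of these cells in the genotype difference of Ccl6 was not tested.

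The members lie in 4 places of the genome (GRCm38, GENCODE M21). Ccl2 (ENSMUSG00000035385, chr11:82035571-82037453, + strand) and Ccl7 (ENSMUSG00000035373, chr11:82045712-82047525, + strand) open a cluster with Ccl11, Ccl12, Ccl8 and Ccl1. In this cluster Ccl12 was at 0.960 FPKM in WT and 1.18 in knockout cells at 0 h, and at 0.159 and 0 at 24 h. Ccl8 was at most 0.511 FPKM, and Ccl11 and Ccl1 were listed at 0 throughout. Of this cluster only the adjacent Ccl2 and Ccl7 were above 2 FPKM in any library.

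Ccl9 (ENSMUSG00000019122, chr11:83572919-83578636, − strand), Ccl6 (ENSMUSG00000018927, chr11:83587882-83593087, − strand), Ccl3 (ENSMUSG00000000982, chr11:83647844-83649355, − strand) and Ccl4 (ENSMUSG00000018930, chr11:83662584-83664683, + strand) follow Ccl5 on the same chromosome. Ccl5, which attracts T cells, was at 9.40 FPKM in WT and 12.2 in knockout cells at 0 h, and at 1.50 and 2.16 at 24 h (−2.06 in each). Along this cluster the response therefore went from lower at Ccl5 to higher at Ccl9 and Ccl6, and then to lower or level at Ccl3 and Ccl4.

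Ccl22 (ENSMUSG00000031779, chr8:94745590-94751699, + strand) and Ccl17 (ENSMUSG00000031780, chr8:94810453-94812036, + strand) flank Cx3cl1, the gene of the membrane-bound chemokine fractalkine. Cx3cl1 stood at 1.04 and 0.562 FPKM in WT and at 1.50 and 0.748 in the knockout, at 0 h and 24 h, so it was lower at 24 h while both of its neighbours were higher. Ccl24 (ENSMUSG00000004814, chr5:135569937-135573049, − strand) lies beside Ccl26, which was listed at 0 in all libraries.

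**Figure D4:**
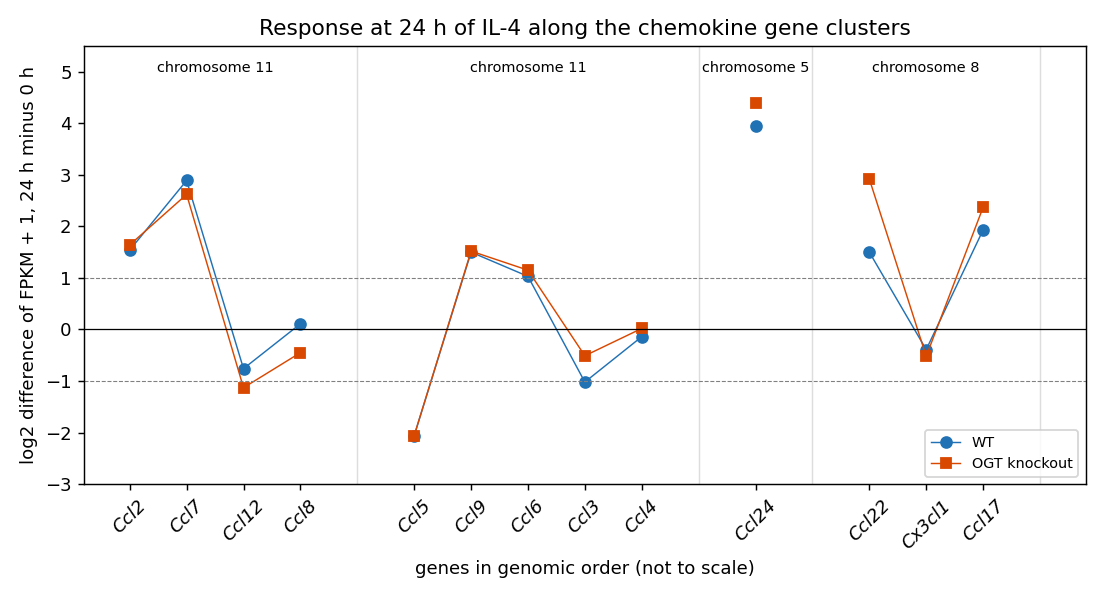
Log2 differences of FPKM + 1 between 24 h of IL-4 and 0 h (y axis) for WT (blue) and OGT knockout (orange) are shown for the protein-coding chemokine genes at 0.1 FPKM or more in a library, in genomic order along their clusters (x axis, not to scale), with lines joining genes of a cluster. Ccl5 at −2.06 stands beside Ccl9 at 1.50 in WT, and Cx3cl1 at −0.39 lies between Ccl22 and Ccl17.

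The RefSeq promoter table (GRCm38.p6) holds a window of 300 bases, from 250 before to 50 after the start site, for 5 members, namely Ccl3, Ccl6, Ccl9, Ccl17 and Ccl22. The upstream part is printed for the neighbours Ccl17 and Ccl22, which were both higher at 24 h in both genotypes, and for Ccl9. Capitals mark STAT-type palindromes in Ccl17, and an AP-1 match and then an NF-kB match in Ccl9. For Ccl22 only the 156 bases that lie before both the RefSeq and the GENCODE start are given.
Ccl17, chr8:94810203-94810452, + strand: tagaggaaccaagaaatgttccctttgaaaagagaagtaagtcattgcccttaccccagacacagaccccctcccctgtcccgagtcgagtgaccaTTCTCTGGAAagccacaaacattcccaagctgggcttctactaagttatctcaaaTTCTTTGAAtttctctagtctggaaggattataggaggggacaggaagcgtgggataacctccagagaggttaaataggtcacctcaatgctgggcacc
Ccl22, chr8:94745434-94745589, + strand: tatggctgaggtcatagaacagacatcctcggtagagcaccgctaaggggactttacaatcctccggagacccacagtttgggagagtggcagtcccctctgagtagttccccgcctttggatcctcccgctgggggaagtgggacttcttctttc
Ccl9, chr11:83578637-83578886, − strand: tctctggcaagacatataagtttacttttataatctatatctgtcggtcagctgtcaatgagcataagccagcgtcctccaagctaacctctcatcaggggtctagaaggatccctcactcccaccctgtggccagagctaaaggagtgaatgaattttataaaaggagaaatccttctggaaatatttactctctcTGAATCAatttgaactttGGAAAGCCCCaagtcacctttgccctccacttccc

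The windows were searched on both strands for TTC and GAA with 3 or with 4 bases between them, which are the palindromes that STAT proteins are known to bind. Ccl17 held one of each, starting 99 bases (TTCTTTGAA) and 154 bases (TTCTCTGGAA) before the start site. The other 4 windows held neither. Of 32851 windows in the table, 8.3% held the form with 3 bases between, 6.95% the form with 4, and 0.679% both. Either form was found in 14.6% of all windows, beside 1 of the 5 here. The AP-1 motif TGANTCA was found in Ccl9 alone of the 5, and in 7.81% of all windows. The NF-kB motif was also found in Ccl9 alone, and in 4.51% of all windows. The TATA box TATAAA was matched 3 times in Ccl9, where matches on opposite strands overlap, and in 13.6% of all windows. The interferon response element, GAAA repeated after 2 bases, was in none of the 5 and in 3.44% of all. These matches are letters in a window and not measured binding.

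Receptors of these ligands were read in the same libraries. Ccr1, a receptor of Ccl3, Ccl6, Ccl7 and Ccl9, stood at 23.5 FPKM in WT and 7.92 in knockout cells at 0 h (−1.46), and at 32.9 and 17.5 at 24 h (−0.87). Ccr2, the receptor of Ccl2 and Ccl7, was at 14.3 and 16.3 FPKM at 0 h and at 16.0 and 9.36 at 24 h. Ccr3, the Ccl24 receptor, was at 4.56 and 2.40 FPKM at 0 h and at 8.54 and 4.21 at 24 h. Ccr4, the receptor of Ccl17 and Ccl22, was at most 0.04 FPKM, and Ccr8 was listed at 0. Ackr2, an atypical receptor that removes CC chemokines, was at most 0.03 FPKM. The libraries thus held transcripts of receptors for Ccl2, Ccl3, Ccl6, Ccl7, Ccl9 and Ccl24 and next to none for Ccl17 and Ccl22.

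Among the other chemokine ligands most values were lower at 24 h. Of 12 further CC ligands only Ccl5 was kept in the WT response, and it was 2-fold lower. In the knockout Ccl5 and Ccl12 were kept, and both were 2-fold lower. Ccl12 was kept there only through its 0 h value of 1.18 FPKM, so its direction was partly set by the filter. Of 17 CXC, CX3C and XC ligands, 8 were kept in WT, with none 2-fold higher, 4 lower (Cxcl2, Pf4, Cxcl10 and Cxcl16) and all 8 values negative. Cxcl2, Cxcl10, Cxcl12 and Cx3cl1 reached 1 FPKM in WT only at 0 h, so their sign was partly set by the filter. Cxcl2 went from 1.28 to 0.04 FPKM, near the floor. The same held for Cxcl10 and Cx3cl1 in the knockout. In the knockout 6 were kept, with none 2-fold higher, 2 lower (Cxcl10 and Cxcl16) and a median of −0.67. Cxcl16, which attracts cells bearing Cxcr6, stood at 52.5 and 19.8 FPKM in WT and at 54.4 and 24.4 in the knockout. Of 19 chemokine receptors 10 were kept in each genotype. In WT none was 2-fold higher and 3 were lower (Cxcr3, Cxcr4 and Cx3cr1). In the knockout the same 3 were lower and Ccr1 was higher. Cxcr3 and Cx3cr1 reached 1 FPKM only at 0 h in both genotypes. Of 5 atypical receptors only Ccrl2 was kept, and it was 2-fold lower in WT (−1.56) and in the knockout (−1.75). Between genotypes, the ligands and receptors of these lists past 2-fold at 0 h were Cxcl10 (1.21) and Cx3cr1 (1.26), higher in the knockout, and Ppbp (−1.54) and Ccr1, lower. At 24 h only Ppbp (−1.19) was.

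A list of 36 known regulators of chemokine expression was read alongside. It holds transcription factors as well as receptor chains and kinases of IL-4 signalling. In both genotypes the same 7 were at least 2-fold higher at 24 h, namely Irf4, Pparg, Egr2, Klf4, Myc, Fosl2 and Atf3. In WT 6 were 2-fold lower and in the knockout 5. Stat6, the transcription factor of IL-4 signalling, was level, between 50.2 and 52.3 FPKM in all libraries. Il4ra, which encodes a chain of the IL-4 receptor, was at 34.4 and 15.6 FPKM in WT (−1.09). In the knockout it was at 32.6 and 16.5 FPKM (−0.94). Irf4, a transcription factor induced by IL-4, was at 1.97 and 46.0 FPKM in WT and at 3.33 and 58.4 in the knockout. Nfkbiz, which encodes an inducible co-factor of NF-kB, was at 15.7 and 0.420 FPKM in WT and at 14.8 and 0.884 in the knockout. Between genotypes Egr2 alone passed 2-fold, lower in knockout cells at 0 h (−1.15) and at 24 h (−2.04).

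Genes with the most similar profiles were sought for each of the 8 members at 5 FPKM or more in a library. Likeness was the Euclidean distance between log2(FPKM + 1) profiles centred on their own mean, over only 4 libraries and 6531 candidate genes. It describes shape, though for genes at low values the 1 FPKM added makes shape depend on level too. Nearest to Ccl9 was Hip1 (distance 0.021), and nearest to Ccl2 was Daglb (0.044). Ccl2 and Ccl9 were also 0.104 from each other, the closest pair of members, although Ccl9 was far more abundant. That nearness depends on the 1 FPKM added. As plain ratios of FPKM between 24 h and 0 h, Ccl2 was 3.80-fold in WT and 4.18-fold in the knockout. Ccl9 was 2.83-fold and 2.87-fold. Nearest to Ccl6 was Fzd7 (0.131), to Ccl3 Lhfpl2 (0.069), and to Ccl4 Tmem30a (0.021), a gene as flat as Ccl4. Ccl7 had no gene as near, with Dusp4 at 0.232 and Myc at 0.343. The same held for Ccl24, with Flt1 at 0.309 and Dcstamp at 0.340. Ccl22 stood furthest from its nearest genes, Mmp19 (0.402), Edn1 (0.406) and Vdr (0.408). Mmp19, a matrix metalloproteinase gene, was at 19.3 and 56.4 FPKM in WT and at 19.0 and 107 in the knockout, so it too was higher in the knockout than in WT at 24 h.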

How the data were processed

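RNA-seq of 4 libraries was analysed, 1 per group. The deposited table gives FPKM for 52550 Ensembl genes. Its header names no unit, and FPKM was read from the values, whose totals differ between libraries (338704 to 353093). STAR, StringTie and GRCm38 are named in the submitters' processing notes. The sources used here do not give versions, annotation release or strandedness. Symbols came from GENCODE M21 for 52403 genes, and genes sharing a symbol were summed to 52476 names.

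Fragments behind a value were estimated from genes with 1 exon over 1 kb. The commonest product of FPKM and length within a range set in advance stands for 1 fragment, so the estimate was bound to that range. This gave 20.0 to 21.9 fragments per FPKM and kb. These are estimates, and no raw counts were used.

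The members and lists were chosen with earlier results of these data known. All 9 members are named, and of the other lists genes at 5 FPKM or more in a library, and receptors of the members, of which 1 is not reported here. Neighbours in the clusters, markers and other genes under 5 FPKM were named after their values were seen. The 3 nearest profiles were sought per member. Differences used a pseudocount of 1 FPKM, a filter at 1 FPKM and a 2-fold limit in 5 comparisons. The procedure was run on simulated counts, drawn without regard to gene length and with no spread between cultures. That run does not measure the error of the values given here. Alternatives were pseudocounts of 0.1 and 5, no filter and a filter at 5 FPKM, and 2 rescalings. Python 3.11.15 with pandas 2.3.3 was used.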

Additional observations from a re-analysis of the deposited data

Results flagged for a closer look

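The knockout difference of Ccl22 was −0.47 at 0 h and 0.94 at 24 h on the log2 scale, so it pointed opposite ways at the 2 times, and the responses of the genotypes differed by 1.42. Small differences of opposite sign were also seen for Ccl3 (−0.49 at 0 h and 0.02 at 24 h, 0.51 between responses), for Ccl2 (−0.06 and 0.05, 0.10 between responses) and for Ccl4 (−0.07 and 0.09, 0.16 between responses). The response of Ccl4 itself was −0.14 in WT and 0.02 in the knockout. Ccl17 (−0.19 and 0.25, 0.45 between responses) and Ccl24 (−0.12 and 0.32, 0.45 between responses) also had opposite signs, but neither reached 1 FPKM at 0 h, so their 0 h values were left out of that comparison. With 1 library per group none of these differences was tested.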

How the results depend on the processing

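With a pseudocount of 5 FPKM, the members at least 2-fold higher in the WT response went from 7 to 4 (Ccl6, Ccl7, Ccl9 and Ccl24), those lower from 1 to 0, and those whose response was 2-fold larger in the knockout from 1 to 0. With one of 0.1 FPKM, 1 member (Ccl22, 1.03) was 2-fold higher in the knockout at 24 h and 2 members (Ccl17 and Ccl22) responded 2-fold more in the knockout. In these settings the cause follows from the pseudocount, which pulls low values toward each other when large. The other 55 member counts stayed within 1.5 times, and no member past 2-fold changed sign under any alternative run. Counts over all genes moved most with the pseudocount: genes higher in the WT response numbered 556 with 1 FPKM, 253 with 5 and 845 with 0.1, genes lower 732, 304 and 1126, genes higher in the knockout at 24 h 94, 23 and 209. The pseudocount and the filter at 5 FPKM moved 26 of 60 such counts by over 1.5 times. Rescaling shifted the median of all kept genes by under 0.1. Depth limits Ccl17, Ccl7 and Ccl24 at 0 h. No paired analysis was possible because each group holds 1 library and the labels carry no replicate numbers.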
